A study of Mus musculus with 9 samples.

Results

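Non-muscle myosin II, the actin motor that blebbistatin inhibits, was followed at the level of its transcripts in B16 cells, a mouse melanoma line of wild-type (WT) genotype. The genes were chosen by symbol and comprise the heavy chains Myh9, Myh10 and Myh14, the light chains Myl6, Myl9, Myl12a and Myl12b, the light chain kinase Mylk and the light chain phosphatase subunits Ppp1r12a and Ppp1cb. All 10 were found in each of the 9 deposited libraries, among 22972 gene names, and 8 of them were among the 10109 genes that averaged 1 FPKM or more and were tested. FPKM counts the sequenced fragments of a gene scaled to the length of its transcript and to the mapped fragments of each library.

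RNA was collected on day 3 from cells grown on a flexible PDMS film, with 3 libraries for each of 3 groups. CTL cells were not strained, and MS cells were cyclically strained for 72 h. The last group received blebbistatin at 100 ng/mL for 72 h and is named MS + Blebb. here after the study, although its sample labels name blebbistatin and no straining, so whether the cells were also strained rests on the study alone. The libraries of a group are labelled as parallel experiments, all from the same cell line, and p-values measure the spread between these libraries, which may be technical.

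Each myosin II molecule holds a pair of heavy chains, which carry the motor and the tail, and an essential and a regulatory light chain on each heavy chain. Phosphorylation of the regulatory light chain, for example by myosin light chain kinase, switches the motor on and lets it assemble into filaments, and the phosphatase made of a catalytic subunit and the targeting subunit Ppp1r12a (MYPT1) reverses it. The 3 heavy chain genes encode the isoforms IIA, IIB and IIC, which differ in motor speed and in how long they stay bound to actin. Blebbistatin blocks the motor protein itself, a step that transcript levels do not measure.

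The heavy chain genes differed most in level of any members of the same role, so the promoters of all 3 are shown from RefSeq (GRCm38.p6), each from 250 bases before to 50 bases after the annotated start and written along the gene's own strand. Capitals mark the CCAAT box (CCAAT, or ATTGG on the other strand) and the GC box (GGGCGG, or CCGCCC on the other strand). The Myh9 promoter lies at chr15:77842126-77842425 on the minus strand, the Myh10 promoter at chr11:68691665-68691964 on the plus strand, and the Myh14 promoter at chr7:44670794-44671093 on the minus strand.
Myh9: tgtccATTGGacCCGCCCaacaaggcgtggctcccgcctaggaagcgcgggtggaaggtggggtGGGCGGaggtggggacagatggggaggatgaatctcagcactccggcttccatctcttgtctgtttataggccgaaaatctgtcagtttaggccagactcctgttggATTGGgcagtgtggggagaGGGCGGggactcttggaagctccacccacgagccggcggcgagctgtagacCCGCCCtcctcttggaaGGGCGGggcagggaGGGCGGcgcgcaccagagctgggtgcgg
Myh10: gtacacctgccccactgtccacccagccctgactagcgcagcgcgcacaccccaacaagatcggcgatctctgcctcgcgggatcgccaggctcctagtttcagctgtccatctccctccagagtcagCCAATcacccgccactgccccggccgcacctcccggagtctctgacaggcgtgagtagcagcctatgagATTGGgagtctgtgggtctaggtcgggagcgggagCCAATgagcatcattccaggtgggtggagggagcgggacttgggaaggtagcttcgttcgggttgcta
Myh14: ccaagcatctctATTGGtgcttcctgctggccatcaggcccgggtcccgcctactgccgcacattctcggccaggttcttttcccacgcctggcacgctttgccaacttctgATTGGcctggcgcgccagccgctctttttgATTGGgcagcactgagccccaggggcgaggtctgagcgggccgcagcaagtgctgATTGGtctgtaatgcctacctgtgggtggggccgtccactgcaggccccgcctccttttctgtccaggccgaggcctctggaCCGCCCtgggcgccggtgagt
Myh9 held 2 CCAAT boxes and 6 GC boxes, Myh10 held 3 CCAAT boxes and 0 GC boxes, and Myh14 held 4 CCAAT boxes and 1 GC box. Of 32851 promoter windows of the same length, 37.4% held a CCAAT box and 35.7% held a GC box, so these letters are common. The matches are descriptions of the sequence and not binding sites.

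Myl9, the regulatory light chain of smooth muscle, was nearly absent from these cells, and its promoter at chr2:156775214-156775513 on the plus strand is shown for the CArG box in capitals, the motif of serum response factor. It starts 161 bases before the annotated start.
Myl9: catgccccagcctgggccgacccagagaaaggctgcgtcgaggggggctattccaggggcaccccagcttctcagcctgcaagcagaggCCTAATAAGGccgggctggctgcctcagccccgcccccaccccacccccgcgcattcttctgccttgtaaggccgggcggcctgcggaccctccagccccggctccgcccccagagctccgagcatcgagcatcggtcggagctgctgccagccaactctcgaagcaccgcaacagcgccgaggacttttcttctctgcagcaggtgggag
Of all promoter windows, 1.63% held a CArG box. Among the 11 windows of the 10 genes it was found in that of Myl9 and in the second of the 2 windows of Myl6.

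The melanoma label was checked against marker genes. All 7 melanocyte markers were expressed, with a summed level between 7444 and 12933 FPKM in the 9 libraries. All 6 fibroblast markers and all 3 keratinocyte markers stayed under 1 FPKM in every library, as did 4 of 5 macrophage markers, with Cd68 as the exception. Of the 8 smooth muscle markers, Des and Smtn were expressed and the other 6 stayed under 1 FPKM. In bulk RNA, fewer cells of a type and less RNA per cell cannot be told apart. The depth is unknown, since FPKM does not keep the read counts. On the first principal component, with 70.4% of the variance, the scores were -43.9 for MS + Blebb. replicate 2 and -42.1 for CTL replicate 1, and the other 7 libraries scored from -10.0 to 35.8, with MS replicate 3 at -10.0 next to MS + Blebb. replicate 1 at -7.29. After a correction for GC content the scores were -34.2, -35.0 and -17.2 for MS + Blebb. replicate 2, CTL replicate 1 and MS replicate 3, and those of the other 6 ran from 2.92 to 21.9. These 3 libraries come from different groups and are called set apart below. They were chosen with earlier results of these data known, so the corrected scores describe that choice and do not test it. For results that rest on them, values without them are also given.

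B16 cells expressed a IIA-type myosin II at levels that did not separate the 3 groups. Myh9 accounted for 84.9 to 97.1% of heavy chain FPKM, Myl6 was the most abundant member with a mean of 548 FPKM over the 9 libraries, and Myl12a and Myl12b supplied nearly all regulatory light chain. In MS versus CTL, 0 of the 8 members tested passed an adjusted p of 0.05 (limma, Benjamini-Hochberg over all genes tested), where 0.0% of all genes did, and 0 passed an unadjusted p of 0.05, where 0.158% of all genes did. The counts in MS + Blebb. versus MS were again 0 of 8 for the adjusted p (0.0% of all genes, limma) and 0 of 8 for the unadjusted p (1.25% of all genes). For MS + Blebb. versus CTL they were 0 of 8 for the adjusted p (0.0% of all genes, limma) and 0 of 8 for the unadjusted p (0.089% of all genes). The ranges of the groups overlapped for all 8 members in each comparison, while they did not overlap for 3.17% of all genes in MS versus CTL, 3.73% in MS + Blebb. versus MS and 2.08% in MS + Blebb. versus CTL. With so few genes called in the whole table, these counts do not set the members apart from other genes.

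**Figure D1:**
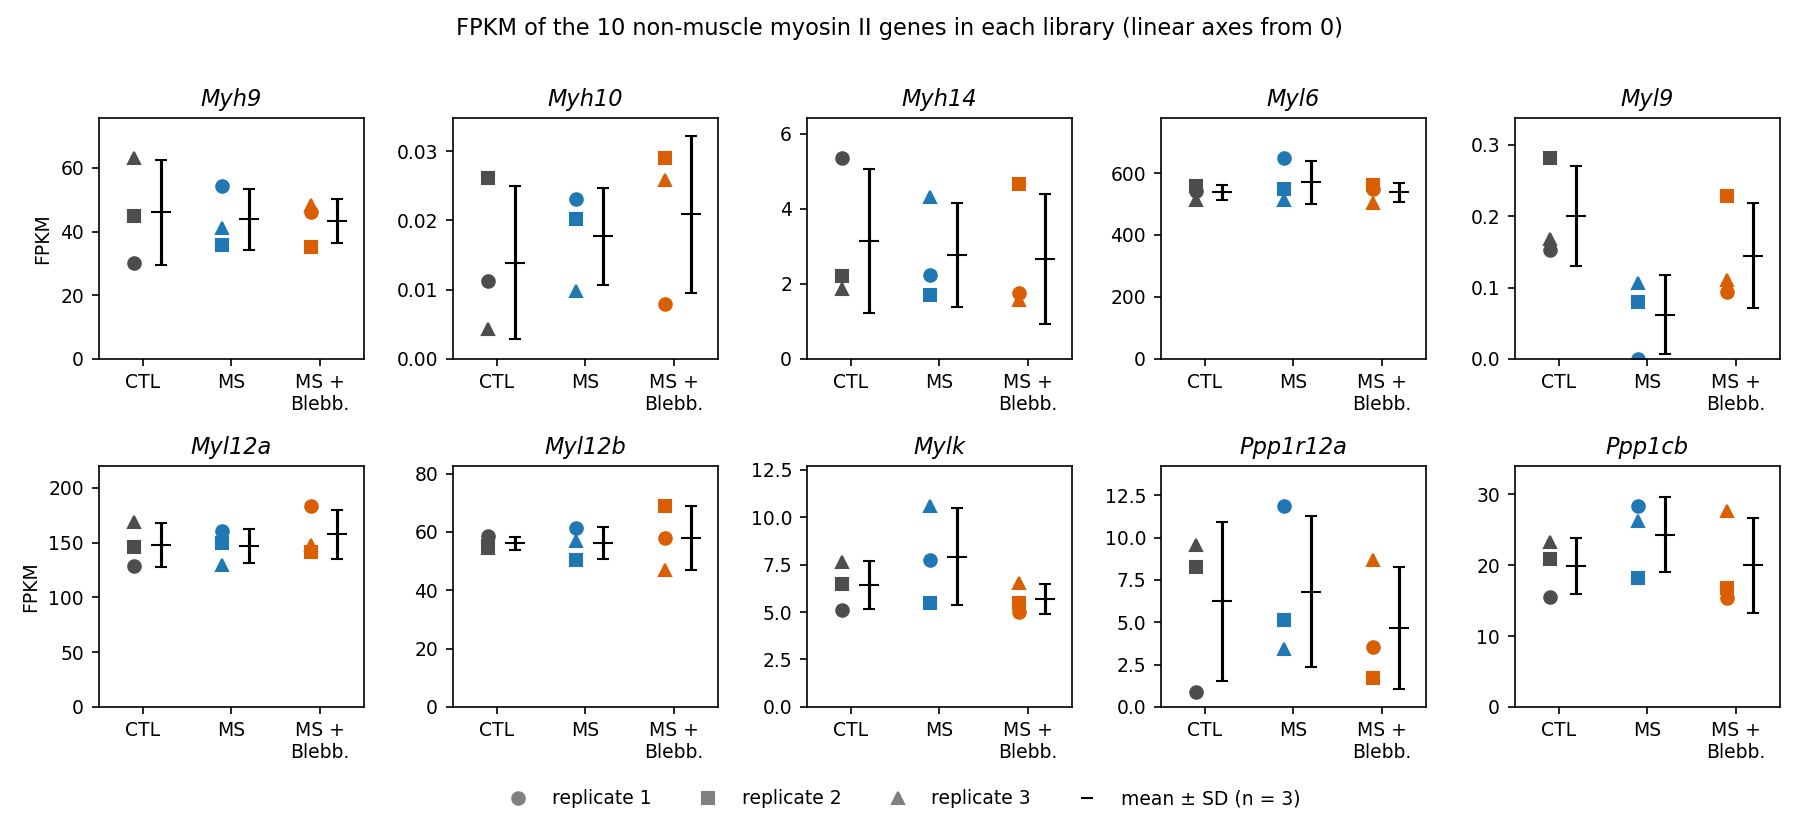
FPKM of the 10 genes (y axis, linear from 0, a scale of its own in each panel) by group (x axis), with circles, squares and triangles for replicates 1, 2 and 3 and the bar for mean ± SD (n = 3). The groups overlapped in each panel except for Myl9 in CTL and MS. There the 3 CTL libraries lay between 0.152 and 0.281 FPKM and the 3 MS libraries between 0 and 0.106 FPKM. CTL and MS did not overlap for 3.17% of all genes tested, a set that leaves out Myl9.

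Myh9, the IIA heavy chain (GENCODE M21 on GRCm38, chr15:77760587-77842175, minus strand), was measured at 30.2, 44.7 and 63.0 FPKM in the CTL libraries. It was at 54.4, 35.7 and 41.3 FPKM in MS, and at 46.1, 35.3 and 48.5 FPKM in MS + Blebb. Both the lowest and the highest library were CTL, and the groups overlapped throughout. CTL averaged 46.0 ± 16.4 FPKM, MS 43.8 ± 9.65 FPKM and MS + Blebb. 43.3 ± 7.03 FPKM (SD, n = 3). The log2 fold change was -0.030 in MS versus CTL (standard error 0.27, limma and Benjamini-Hochberg adjusted p = 1.00). It was -0.0070 in MS + Blebb. versus MS (limma adjusted p = 0.997), with a 95% confidence interval from 0.657-fold to 1.51-fold. Fold changes are on the log2(FPKM + 1) scale, which understates the change of low genes. That interval holds the changes of Myh9 compatible with this spread between libraries and is not a limit of detection. The adjusted threshold over all genes could also miss a change beyond it.

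Myh14, the IIC heavy chain (chr7:44605803-44670843, minus strand), was at 5.35, 2.22 and 1.87 FPKM in CTL. Its level was 2.25, 1.72 and 4.33 FPKM in MS, and 1.77, 4.67 and 1.57 FPKM in MS + Blebb. A single library of each group was high, and these were the 3 libraries set apart. The log2 fold change was -0.11 in MS versus CTL (standard error 0.41, limma adjusted p = 1.00) and -0.033 without those 3 libraries. In MS + Blebb. versus MS it was -0.074 (limma adjusted p = 0.978) and -0.16 without them.

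Myh10, the IIB heavy chain (chr11:68691559-68816632, plus strand), was close to 0 in all libraries. It was listed at 0.0113, 0.0261 and 0.00437 FPKM in CTL, at 0.0231, 0.0202 and 0.00984 FPKM in MS, and at 0.00786, 0.0289 and 0.0258 FPKM in MS + Blebb. The groups overlapped, and exact two-sided permutation tests gave p = 0.8 for MS versus CTL, p = 0.6 for MS + Blebb. versus MS and p = 0.6 for MS + Blebb. versus CTL. With 3 libraries against 3 the smallest p that this test allows is 0.1. Of the 50-base stretches of the longest Myh10 transcript, 0.943% also occur in Myh9, which was expressed far higher, so even the low Myh10 value is uncertain.

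Within the heavy chains, the Myh9 share was 84.9, 95.2 and 97.1% in CTL. It was 96.0, 95.4 and 90.5% in MS, and 96.3, 88.3 and 96.8% in MS + Blebb. Myh14 made up nearly all of the rest, at 15.0, 4.72 and 2.89% in CTL, 3.97, 4.59 and 9.49% in MS, and 3.69, 11.7 and 3.14% in MS + Blebb. Myh10 was at most 0.0724% in any library. The 3 lowest Myh9 shares were those of CTL replicate 1, MS + Blebb. replicate 2 and MS replicate 3, and the other 6 libraries lay between 95.2 and 97.1%. The group means were 92.4 ± 6.55% in CTL, 93.9 ± 3.01% in MS and 93.8 ± 4.80% in MS + Blebb. (SD, n = 3). The difference in mean share was 1.52 percentage points in MS versus CTL (exact two-sided permutation test, p = 0.8) and -0.159 points in MS + Blebb. versus MS (exact permutation p = 1.0). Without the 3 libraries set apart these differences were -0.492 and 0.877 points. Over all 3 groups at once, an exact permutation test over every assignment of the libraries to groups gave p = 0.911 for the Myh9 share.

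**Figure D2:**
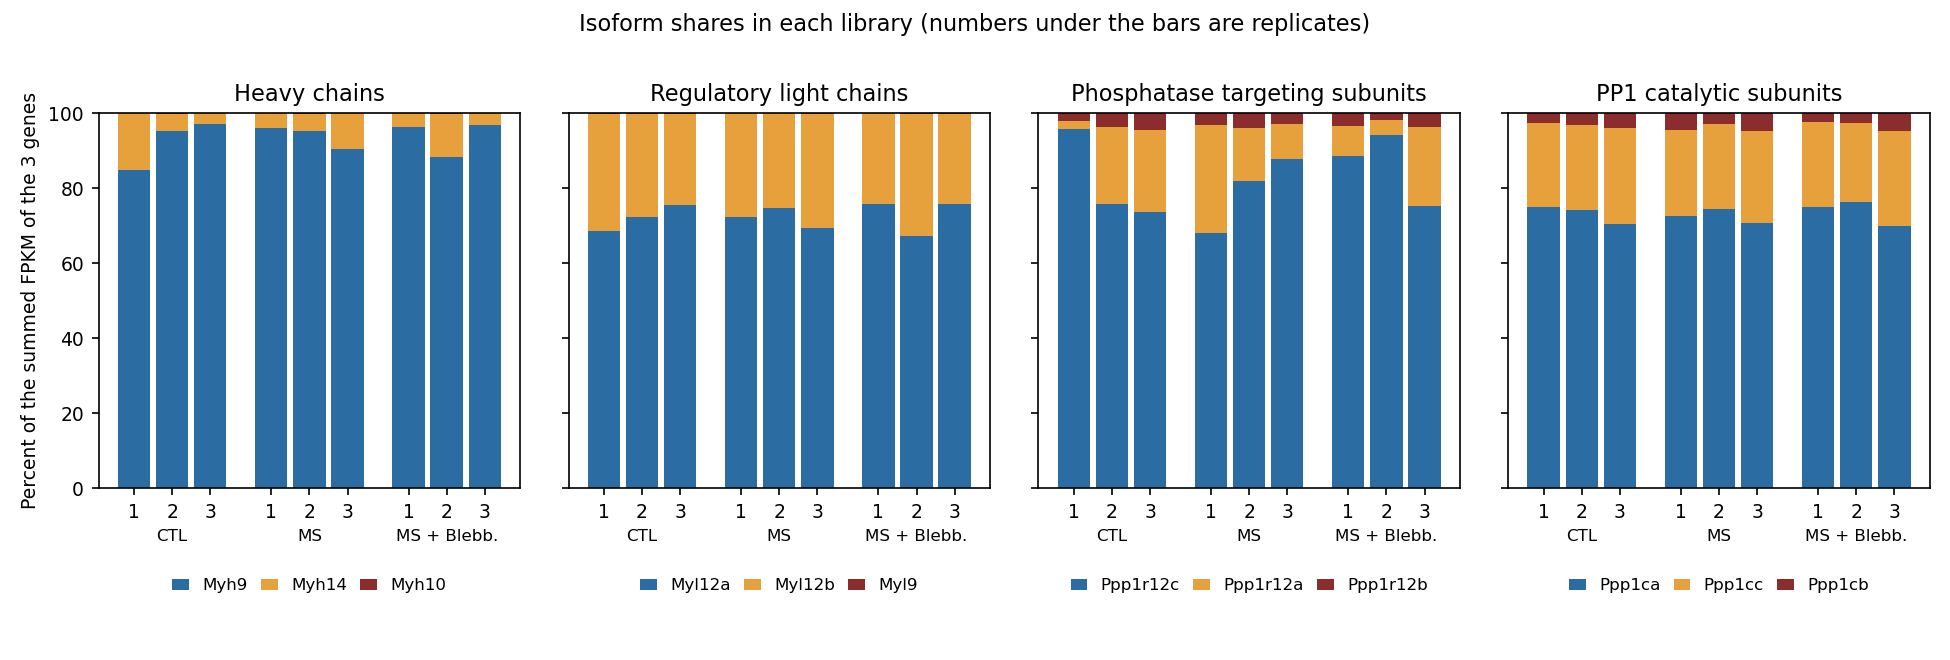
Share of each isoform in the summed FPKM of 3 genes of the same role (y axis, percent) in each of the 9 libraries (x axis, replicates 1 to 3 of each group), for heavy chains, regulatory light chains, phosphatase targeting subunits and PP1 catalytic subunits. Myh9 filled 84.9 to 97.1% of the heavy chain bars, Myl12a 67.2 to 75.9% of the regulatory light chain bars, Ppp1r12c 68.0 to 95.8% of the targeting subunit bars and Ppp1cb 2.24 to 4.83% of the catalytic subunit bars, while Myh10 and Myl9 were too low to be seen.

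Myl6, the essential light chain of non-muscle and smooth muscle myosin II (chr10:128490860-128494145, minus strand), stabilizes the lever arm of the motor. It was at 543, 557 and 512 FPKM in CTL, at 647, 548 and 514 FPKM in MS, and at 547, 561 and 504 FPKM in MS + Blebb. MS replicate 1 was above the other 8 libraries, which lay within 504 to 561 FPKM. Myl6 had the smallest standard error of the 8 members tested, 0.12, and log2 fold changes of 0.078 in MS versus CTL and -0.078 in MS + Blebb. versus MS (limma adjusted p = 1.00 and 0.902). For MS versus CTL the 95% confidence interval ran from 0.870-fold to 1.28-fold. Of the summed FPKM of Myl6 and its paralog Myl6b, Myl6 held 97.2 to 99.0%. Of the 50-base stretches of the longest Myl6 transcript, 7.59% also occur in other genes, 6.62% in Gm5526, so the Myl6 level carries some uncertainty.

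Myl12a and Myl12b encode nearly identical non-muscle regulatory light chains, the subunit that the kinases phosphorylate, and lie 2766 bases apart on the minus strand of chromosome 17 (chr17:70993656-71002878 and chr17:70973133-70990890). Myl12a was at 129, 146 and 169 FPKM in CTL, at 161, 150 and 130 FPKM in MS, and at 183, 141 and 148 FPKM in MS + Blebb. Myl12b was at 58.7, 55.2 and 54.5 FPKM in CTL, at 61.4, 50.2 and 56.9 FPKM in MS, and at 58.1, 68.8 and 46.8 FPKM in MS + Blebb. Myl12a exceeded Myl12b in 9 of 9 libraries, and the groups overlapped for both. In MS versus CTL the log2 fold change was -0.0055 for Myl12a and -0.0031 for Myl12b, each with a standard error of 0.15 (limma adjusted p = 1.00 for both). The corresponding values of MS + Blebb. versus MS were 0.097 for Myl12a (limma adjusted p = 0.902) and 0.030 for Myl12b (limma adjusted p = 0.975). The annotation also holds a Myl12b gene that spans both, and 10.2% of the 50-base stretches of Myl12a occur in Myl12b alone and 29.2% in the spanning gene, so the split between Myl12a and Myl12b is uncertain.

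Myl9, a regulatory light chain typical of smooth muscle (chr2:156775420-156781658, plus strand), was at 0.152, 0.281 and 0.168 FPKM in CTL. It was listed at 0 in MS replicate 1 and was at 0.0798 and 0.106 FPKM in the other MS libraries, and at 0.0937, 0.229 and 0.111 FPKM in MS + Blebb. The CTL libraries lay above the MS libraries, with an exact two-sided permutation p of 0.1, the smallest that 3 against 3 allows. CTL and MS did not overlap for 3.17% of all genes tested either, a set that leaves out Myl9. MS + Blebb. overlapped both other groups (exact permutation p = 0.2 against MS and p = 0.5 against CTL). Myl9 was chosen for its role and is under the minimum level of the fit, and a difference among values this close to 0 carries little weight without read counts.

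Of the summed regulatory light chain FPKM, Myl12a held 67.2 to 75.9%, Myl12b 24.0 to 32.7% and Myl9 at most 0.140%. Regulatory light chain FPKM stood at 5.27, 4.28 and 3.45 per heavy chain FPKM in CTL, 3.92, 5.34 and 4.10 in MS, and 5.03, 5.26 and 3.89 in MS + Blebb. The groups overlapped, with exact two-sided permutation p = 0.9 for MS versus CTL and p = 1.0 for MS + Blebb. versus MS. Per heavy chain FPKM there were 7.99 to 15.7 of essential light chain. These are ratios of transcripts per length, and the assembled protein holds equal numbers of the 3 chains.

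Mylk, myosin light chain kinase (chr16:34745210-35002420, plus strand), which phosphorylates the regulatory light chain when calcium and calmodulin bind it, was at 5.13, 6.47 and 7.64 FPKM in CTL. It was at 7.72, 5.47 and 10.6 FPKM in MS, and at 5.00, 5.49 and 6.55 FPKM in MS + Blebb. MS replicate 3 was the highest library, and the groups overlapped. Its log2 fold change of -0.38 in MS + Blebb. versus MS was the closest of any member to the threshold (standard error 0.23, unadjusted p = 0.128, limma adjusted p = 0.897). Without the 3 libraries set apart it was -0.16. In MS versus CTL it was 0.24 (limma adjusted p = 1.00) and -0.096 without those libraries.

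Ppp1r12a, the targeting subunit that brings the phosphatase to myosin (chr10:108162193-108284475, plus strand), varied most of the 8 members tested. Its level was 0.881, 8.27 and 9.54 FPKM in CTL, 11.8, 5.14 and 3.42 FPKM in MS, and 3.56, 1.73 and 8.68 FPKM in MS + Blebb. The highest library exceeded the lowest by 13.4-fold, and each group held a library under 4 FPKM and a library over 8 FPKM. The 3 lowest were CTL replicate 1, MS + Blebb. replicate 2 and MS replicate 3, the same 3 that were highest for Myh14. The log2 fold change was 0.31 in MS versus CTL (standard error 0.72, limma adjusted p = 1.00) and -0.51 in MS + Blebb. versus MS (limma adjusted p = 0.897). Without the 3 libraries it was -0.15 and -0.42. Its 95% confidence interval in MS + Blebb. versus MS ran from 0.228-fold to 2.16-fold, the widest of the members.

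Ppp1cb, the catalytic subunit that pairs with Ppp1r12a in this phosphatase (chr5:32458843-32517433, plus strand), was at 15.5, 20.9 and 23.3 FPKM in CTL. It was at 28.3, 18.3 and 26.3 FPKM in MS, and at 15.4, 16.9 and 27.7 FPKM in MS + Blebb. The groups overlapped, with MS replicate 1 as the highest and MS + Blebb. replicate 1 as the lowest library. The log2 fold change was 0.27 in MS versus CTL (standard error 0.26, limma adjusted p = 1.00) and -0.29 in MS + Blebb. versus MS (limma adjusted p = 0.897). Without CTL replicate 1 alone, the value in MS versus CTL was 0.11. Outside the libraries set apart, Ppp1cb was at 20.9 and 23.3 FPKM in CTL and at 28.3 and 18.3 FPKM in MS, on both sides of CTL. In MS + Blebb. it was at 15.4 and 27.7 FPKM there.

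Among the catalytic subunits of protein phosphatase 1, Ppp1cb was the minor transcript, at 2.24 to 4.83% of the summed FPKM of Ppp1ca, Ppp1cb and Ppp1cc. Among the targeting subunits, Ppp1r12a held 2.17, 20.6 and 22.0% in CTL, 28.8, 14.3 and 9.35% in MS, and 8.13, 4.05 and 21.2% in MS + Blebb. Its paralog Ppp1r12c (MBS85) held 68.0 to 95.8% in the 9 libraries. Over the 18 tests of shares and ratios in the 3 comparisons, exact two-sided permutation p-values lay between 0.3 and 1.0, and all were 1.0 after Benjamini-Hochberg adjustment. The corresponding tests over all 3 groups gave exact permutation p-values between 0.625 and 0.943 for 6 shares and ratios, all 0.943 after adjustment.

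By mean FPKM over the 9 libraries, the order of the members was Myl6 (548), Myl12a (151), Myl12b (56.7), Myh9 (44.4), Ppp1cb (21.4), Mylk (6.67), Ppp1r12a (5.90), Myh14 (2.86), Myl9 (0.136) and Myh10 (0.0175). The ranges of Myl6, Myl12a and Myl12b did not overlap, and neither did those of Myh9 and Ppp1cb, of Ppp1cb and Mylk, or of Myh14 and Myl9. Myl12b and Myh9 overlapped, with Myl12b higher in 7 of 9 libraries. Mylk and Ppp1r12a overlapped, with Mylk higher in 5 of 9, as did Ppp1r12a and Myh14, with Ppp1r12a higher in 6 of 9. Myl9 and Myh10 overlapped as well, with Myl9 higher in 8 of 9.

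**Figure D3:**
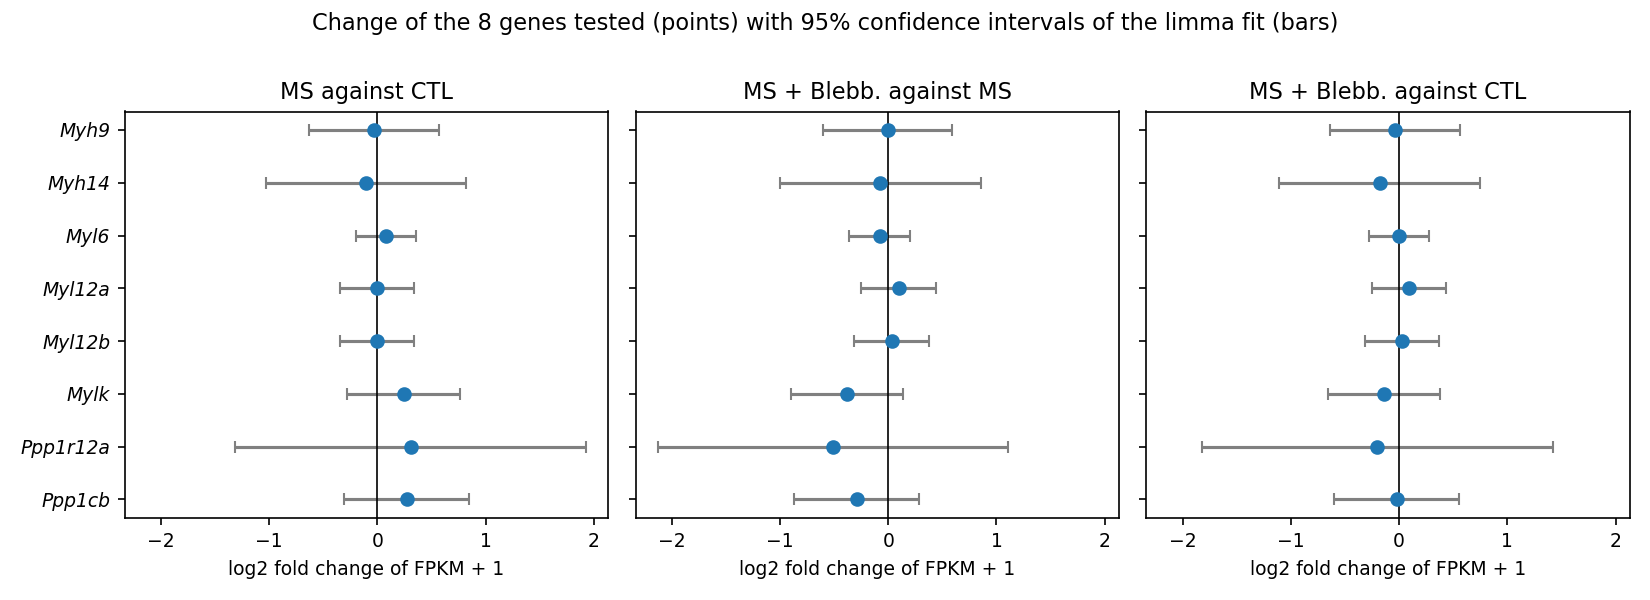
log2 fold change of FPKM + 1 (x axis) of the 8 members tested (y axis) in the 3 comparisons, with 95% confidence intervals of the limma fit as bars. All bars cross 0, the narrowest belong to Myl6 (standard error 0.12) and the widest to Ppp1r12a (standard error 0.72).

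Over the 8 members tested, the log2 fold changes lay between -0.11 (Myh14) and 0.31 (Ppp1r12a) in MS versus CTL, with 4 above 0 and a median of 0.038, beside a median of -0.0018 over all genes tested. In MS + Blebb. versus MS they lay between -0.51 (Ppp1r12a) and 0.097 (Myl12a), with 2 above 0 and a median of -0.076, beside -0.0059 over all genes. MS + Blebb. versus CTL gave values between -0.20 (Ppp1r12a) and 0.091 (Myl12a), 2 above 0 and a median of -0.029, beside -0.013 over all genes. The comparisons share their libraries in pairs, so these values are not independent of each other. A test of any difference among the 3 groups gave an adjusted p of 1.00 for each of the 8 members (F test of the limma fit).

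The 3 libraries set apart were also at the extremes for part of the members. Among all genes tested, 15.8% were highest in exactly those libraries, and 16.1% were lowest in exactly them. Of the 8 members, Myh14 was in the former class (12.5%) and Myl12a and Ppp1r12a were in the latter (25.0%). With so few members, these shares do not set the members apart from other genes. The libraries also differed in how FPKM followed the GC content of the genes. The extremes were MS replicate 1 (Pearson's r = -0.64 over genes, not independent points) and MS + Blebb. replicate 1 (0.55). The libraries set apart differed in sign, with r of 0.45 in CTL replicate 1, 0.54 in MS + Blebb. replicate 2 and -0.16 in MS replicate 3. Myh14 has a GC content of 60.8% and Ppp1r12a of 39.9%. After removal of each library's GC trend, Ppp1r12a ranged from 1.71 to 7.71 FPKM, a 4.51-fold range in place of 13.4-fold. Myh14 ranged from 1.53 to 4.91 FPKM, 3.20-fold in place of 3.40-fold. The fold range also narrowed for Myl12b (1.47 to 1.35) and Ppp1cb (1.83 to 1.40). It widened for Myh9 (2.08 to 2.23), Myl6 (1.28 to 1.33), Myl12a (1.42 to 1.46) and Mylk (2.11 to 2.29). A role of GC content was not tested. The same 3 libraries remained the lowest for Ppp1r12a, at 1.71, 3.39 and 2.96 FPKM, and the highest for Myh14, at 4.91, 4.58 and 3.87 FPKM.

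**Figure D4:**
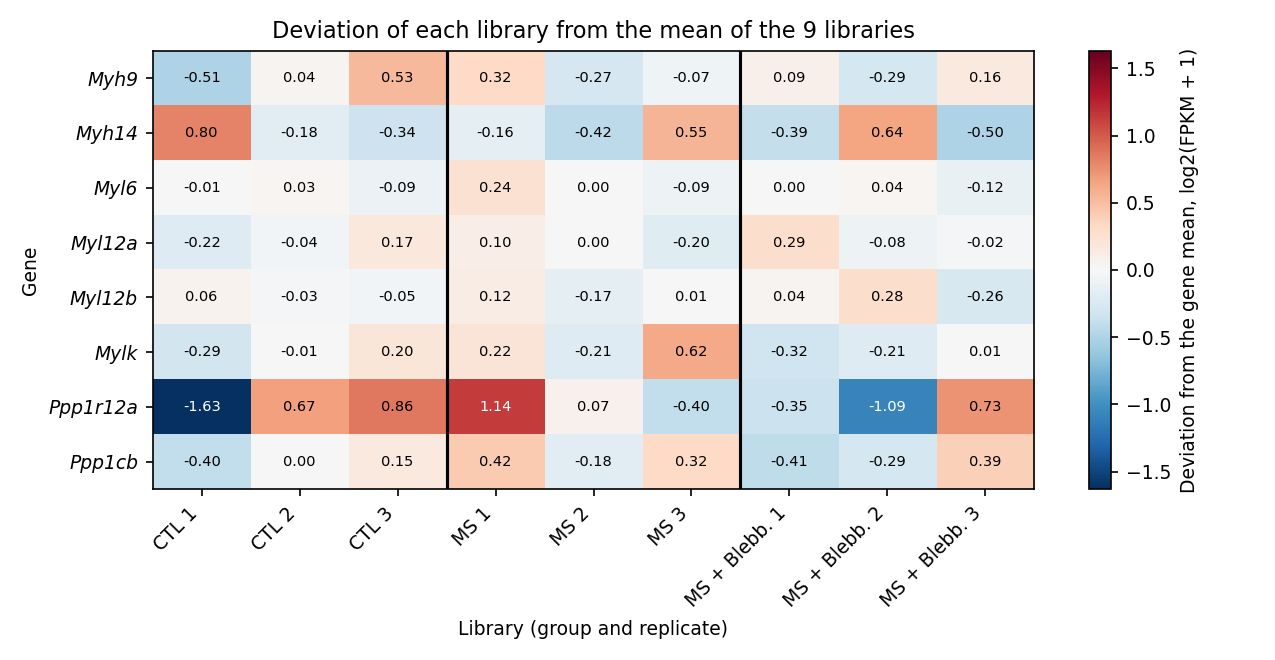
Deviation of each library (x axis) from the mean of the gene over the 9 libraries on the log2(FPKM + 1) scale, for the 8 members tested (y axis), in blue below and red above the mean, with black lines between the groups. The deviations of CTL replicate 1, MS + Blebb. replicate 2 and MS replicate 3 are 0.80, 0.64 and 0.55 for Myh14 and -1.63, -1.09 and -0.40 for Ppp1r12a.

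The muscle myosins, some of which blebbistatin also inhibits, were almost silent. Of 18 muscle class II heavy and light chain genes, 8 were listed at 0 in all libraries and 17 stayed under 1 FPKM in every library. The exception was Mylpf, the regulatory light chain of fast skeletal muscle, at 1.08 to 2.67 FPKM. Its log2 fold change was 0.32 in MS versus CTL (limma adjusted p = 1.00) and -0.29 in MS + Blebb. versus MS (limma adjusted p = 0.897). Myl4 was at most 0.635 FPKM and Myl2 at most 0.218 FPKM.

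Of 13 other genes for kinases that act on the regulatory light chain, 7 were tested. Cdc42bpb (MRCK beta), with a mean of 56.4 FPKM, and Dapk3 (ZIPK), with 55.9 FPKM, were the most abundant and stood above Mylk in each library. Cdc42bpg (MRCK gamma) was at 5.71, 5.33 and 6.81 FPKM in CTL, at 5.07, 4.97 and 5.60 FPKM in MS, and at 7.07, 6.16 and 7.20 FPKM in MS + Blebb. Its MS + Blebb. libraries were above its MS libraries, with a log2 fold change of 0.33, but it did not pass the adjusted threshold (unadjusted p = 0.0440, limma adjusted p = 0.897).

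Of 9 other phosphatase subunits and inhibitors, 6 were tested. Ppp1ca, a catalytic subunit, was at 395 to 518 FPKM, Ppp1r14b, a phosphatase inhibitor, at 217 to 306 FPKM, and Ppp1cc, a catalytic subunit, at 131 to 158 FPKM. The median log2 fold change of the 6 genes was -0.042 in MS versus CTL and 0.076 in MS + Blebb. versus MS. None of the 6 passed an unadjusted p of 0.05 in any of the 3 comparisons (limma), where the shares over all genes were 0.158, 1.25 and 0.089%.

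Of 14 folding, assembly and scaffold partners of myosin II, 6 were tested. Myo18a, a myosin-like protein that co-assembles with myosin II, had a mean of 28.1 FPKM, Unc45a, a chaperone that folds myosin heads, had 20.2 FPKM, and Anln (anillin), which ties myosin to the cytokinetic ring, had 14.3 FPKM with a range from 2.47 to 31.0 FPKM. Of 22 unconventional myosins, which are not of class II, 10 were tested. The highest were Myo7a, with a mean of 65.4 FPKM, Myo1c with 59.2 FPKM, and Myo5a, the melanosome carrier of pigment cells, with 14.3 FPKM. Across these 5 lists, 0 genes passed the adjusted threshold in any comparison (limma), and 1 of the 30 genes tested in them, Cdc42bpg, was at an unadjusted p under 0.05 in MS + Blebb. versus MS, where 1.25% of all genes were. In MS versus CTL and MS + Blebb. versus CTL 0 of the 30 were (0.158 and 0.089% of all genes).

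**Figure D5:**
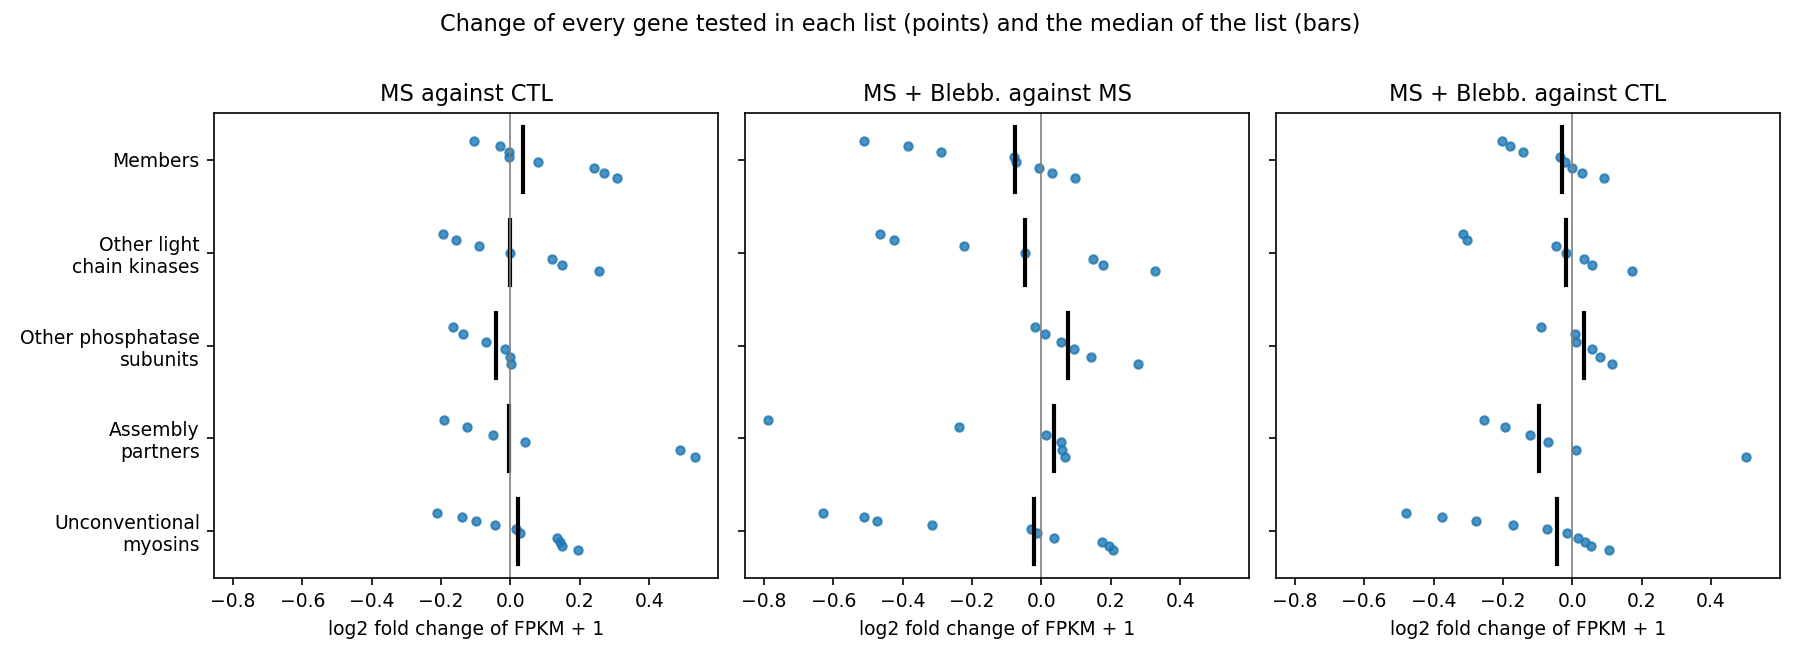
log2 fold change of FPKM + 1 (x axis) of each gene tested in the members and in 4 lists of related genes (y axis, points spread vertically for legibility) in the 3 comparisons, with the median of each list as a black bar. All points lie between -0.79 (Anln in MS + Blebb. versus MS) and 0.53 (Anln in MS versus CTL), and the medians of the members are 0.038, -0.076 and -0.029.

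Across the 9 libraries, the genes whose levels followed Myh9 most closely, of 7003 that averaged 5 FPKM or more, were Sav1 (Pearson's r = 0.986 on the log2 scale), Odf2 (0.983), Cd44 (0.969), Ston1 (0.968) and Ehd4 (0.965). Among the members, r with Myh9 was 0.85 for Ppp1r12a, 0.68 for Myl12a, 0.64 for Ppp1cb, 0.47 for Mylk, 0.039 for Myl6 and -0.23 for Myl12b, and it was -0.65 for Myh14, which averaged under 5 FPKM. These are descriptions over 9 points that share the library differences given above.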

How the data were processed

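RNA of 9 libraries of B16 cells was sequenced by the authors on an Illumina platform after TRIzol extraction, with a SMARTER mRNA kit per the labels. The authors deposited FPKM values, 1 per gene and library, for 22972 gene names. The submitters' processing notes name GRCm38 and mm10, and the aligner, counting program, annotation, strand setting and filters are not given in the sources used here. For CTL replicate 1 the header gives a sample name in place of the unit, and the values were read as FPKM because their total of 484093 was near that of the others (439939 to 483140). Ratios of low values between libraries did not fall on steps (at most 1.61% in any bin of 0.02 log2), so depth is unknown and no counting intervals are given. Opposite-strand genes overlap Myh14, Myl12a, Myl12b, Mylk and Ppp1cb, and reads from both strands may not have been told apart.

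The 10 members, the lists and the 3 libraries set apart were chosen with earlier results of these data known. Named list genes are the 3 with the highest mean FPKM and any with an unadjusted p under 0.05, and genes like Myh9 are the 5 with the highest r. For 10109 genes averaging 1 FPKM or more, log2(FPKM + 1) was fitted in limma 3.58.1 (R 4.3.3) on the 3 groups, with a mean-variance trend, two-sided tests and Benjamini-Hochberg adjustment at 0.05. The fit was tested on simulated data. Myh10, Myl9 and the shares were compared by exact permutation. The alternatives were a pseudocount of 0.1, minimum means of 0 and 5 FPKM, median-of-ratios factors, quantile normalization, a fit without the trend, a fit of the compared groups alone, a replicate block, a block for the libraries set apart, their removal, each library left out, and removal of each library's GC trend (loess, span 0.5), with GC content for 9663 genes (95.6%) from the longest GENCODE M21 transcript. Alternatives for the 3-group share tests were added after seeing the data. Promoters are from RefSeq (GRCm38.p6), with all 10 members matched. Protein sequences were not used here, and 1 further gene list is not reported here. Figures were drawn with matplotlib 3.10.9.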

Additional observations from a re-analysis of the deposited data

How the results depend on the processing

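No member passed the adjusted threshold (0 calls, limma) in any comparison under any alternative run, including the 9 that leave out 1 library each. Over all genes the count was 0, except for 1 gene in MS versus CTL and 1 in MS + Blebb. versus MS without MS replicate 2 (range 0 to 1 over the libraries left out). Whether equal replicate numbers stand for a shared experiment is unknown. Same-numbered libraries deviated with r from -0.78 to 0.84, and these values share the library differences, so they cannot decide it. With the replicate number as a block the calls stayed at 0, and genes at an unadjusted p under 0.05 (limma) numbered 14, 119 and 10 in place of 16, 126 and 9. Within these blocks the Myh9 share differences of 1.52, -0.159 and 1.36 points had exact permutation p of 0.75, 1.0 and 1.0. So few blocks do not allow such a p under 0.05. That unadjusted count over all genes moved with the settings. In MS versus CTL it ran from 7 (without MS replicate 1) to 199 (GC trend removed and library block). In MS + Blebb. versus MS it ran from 34 (without MS replicate 1) to 934 (without MS + Blebb. replicate 3). For MS + Blebb. versus CTL the lowest count was 7 (median-of-ratios scaling, among others) and the highest 183 (no minimum). These counts are not over the same genes. With no minimum 16483 genes were tested, with the GC trend removed 9663, with a minimum of 5 FPKM 7004, and otherwise 10109. Of the member values under alternatives other than leaving out single libraries, 258 kept their direction and 27 turned. The minimum means, the fit without the trend, the fit of the compared groups alone and the replicate and library blocks cannot change a log2 fold change. The 258 therefore include values that could not turn, and are no measure of stability. Of the values leaving out single libraries, 106 kept their direction and 38 turned, and the cause was not tested. In MS versus CTL, removal of the GC trend turned the log2 fold change, alike in the fit with the library block, to 0.061 for Myh9, 0.0086 for Myh14, 0.0046 for Myl12a and 0.040 for Myl12b. It turned to 0.0013 for Myl12b with median-of-ratios scaling, to 0.016 with quantile normalization, and without the 3 libraries set apart to 0.017 for Myl12b, -0.096 for Mylk and -0.15 for Ppp1r12a. In MS + Blebb. versus MS it turned to 0.017 for Myh9 with median-of-ratios scaling, to 0.073 for Myh14 and -0.011 for Myl12b with quantile normalization, to -0.021 for Myl12b and 0.036 for Ppp1cb with the GC trend removed, and to 0.099 for Myh9 and -0.089 for Myl12b without the 3 libraries. In MS + Blebb. versus CTL it turned to 0.029 for Myl6 and 0.0060 for Ppp1cb with median-of-ratios scaling, to 0.097 for Ppp1cb with the GC trend removed, and to -0.071 for Myl12b without the 3 libraries. The Myh9 share difference turned to -0.492 and 0.877 points in MS versus CTL and MS + Blebb. versus MS without the 3 libraries and to 0.227 points in the latter with the GC trend removed. The log2 ratio of Myh9 to Myh10 leaves out Myh14 and is a different quantity from the share. Its difference was -0.64 in MS versus CTL and -0.77 in MS + Blebb. versus CTL. This ratio rests on Myh10 values of at most 0.0289 FPKM, which are uncertain, and shows no reversal of the share.

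With each library left out in turn, values in MS versus CTL ran from -0.29 (without CTL replicate 1) to 0.22 (without CTL replicate 3) for Myh9, -0.39 to 0.25 for Myh14, -0.017 to 0.15 for Myl6, -0.099 to 0.095 for Myl12a, -0.068 to 0.074 for Myl12b and -0.49 to 0.75 for Ppp1r12a. In MS + Blebb. versus MS they ran from -0.14 to 0.16 for Myh9, -0.44 to 0.21 for Myh14, -0.15 to 0.017 for Myl6, -0.016 to 0.17 for Myl12a and -0.10 to 0.17 for Myl12b, and in MS + Blebb. versus CTL from -0.30 to 0.22 for Myh9, -0.54 to 0.17 for Myh14, -0.034 to 0.045 for Myl6, -0.022 to 0.19 for Myl12a, -0.10 to 0.17 for Myl12b, -1.0 to 0.24 for Ppp1r12a and -0.27 to 0.13 for Ppp1cb. For Mylk the value ran from 0.034 (without MS replicate 3) to 0.45 (without MS replicate 2) in MS versus CTL, from -0.60 (without MS replicate 2) to -0.18 (without MS replicate 3) in MS + Blebb. versus MS, and from -0.27 (without CTL replicate 1) to -0.025 (without CTL replicate 3) in MS + Blebb. versus CTL. For Ppp1r12a it ran from -1.0 (without MS + Blebb. replicate 3) to -0.077 (without MS replicate 1) in MS + Blebb. versus MS. For Ppp1cb it ran from 0.11 (without CTL replicate 1) to 0.45 (without MS replicate 2) in MS versus CTL and from -0.54 (without MS + Blebb. replicate 3) to -0.14 (without MS + Blebb. replicate 1) in MS + Blebb. versus MS. The Myh9 share difference ran from -2.22 to 3.86, -1.89 to 2.61 and -2.38 to 4.13 points in the 3 comparisons, and the variance between the 3 groups from 1.87 to 16.4% for the Myh9 share and 0.855 to 34.8% for the Myl12a share. With a minimum of 5 FPKM, Myh14 was not tested. Without read counts, values near 0 such as those of Myh10 and Myl9 have no known counting error.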
